A study of Mus musculus with 3 samples.

Results

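The genes described here encode the interleukin 4 receptor alpha chain (Il4ra), the transcription factors STAT6 and STAT3 (Stat6 and Stat3) and 3 calcium-regulated NFAT transcription factors (Nfatc1, Nfatc2 and Nfatc3). DNA copy number at these 6 genes was read from array comparative genomic hybridisation of 3 mouse neurosphere lines. Members were all probes carrying 1 of the 6 gene names on the array, together with every other probe within 500 kb on each side of the first and last of them. That gave 45 gene probes and 534 flank probes, of 170305 probes on the array. The 6 genes are 6 of 21138 named genes, and of 9421 genes with at least 3 probes of their own.

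Neurospheres are free-floating cultures, here of tumour cells. These 3 lines, 1 group with no untreated line, were grown from gliomas resistant to inhibition of CSF-1R, a receptor needed by macrophages and microglia, and taken at passages 2 to 3. Line DNA carried the red dye Cy5 and mouse liver DNA the green dye Cy3, so a log2 ratio above 0 is a higher signal in the line than in liver. Line 1 has an animal number of its own, whereas lines 2 and 3 share an animal number and a liver label. The sources used here do not give the genotype of the mice, their age, or the inhibitor and its dose, and arrays of DNA hold no expression with which to check the cells against their name. The arrays share 1 slide and the dyes were never swapped, so an effect of the dyes cannot be told apart from a difference between lines and liver.

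Interleukin 4 binds the receptor chain made from Il4ra, which pairs with a further chain, and the attached JAK kinases then phosphorylate STAT6. In macrophages this route switches on genes of the alternatively activated state. STAT3 answers to interleukin 6 and related cytokines and is often active in gliomas. NFAT proteins wait in the cytoplasm until calcineurin, a phosphatase switched on by calcium, removes phosphates and lets them enter the nucleus. The study places resistance in signals from the surroundings of the tumour, and the arrays ask whether the tumour cells carry changes of their DNA.

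The probes behind the results are short. All 3 probes of Il4ra and of Stat6 are shown because those genes differed most from liver, followed by the lowest and the highest probe of Stat3 and the pair of Nfatc3 probes that were low in every line. Capitals mark CpG dinucleotides, the sites of DNA methylation. Positions are those of the file headers (mm9). The sources used here do not give the strand, and exon and intron annotation of this build was not used here.
Il4ra probe 1: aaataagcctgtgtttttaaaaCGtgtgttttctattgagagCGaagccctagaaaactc
Il4ra probe 2: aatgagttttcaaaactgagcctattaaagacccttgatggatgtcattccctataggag
Il4ra probe 3: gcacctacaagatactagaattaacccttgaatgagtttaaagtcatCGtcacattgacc
Stat6 probe 1: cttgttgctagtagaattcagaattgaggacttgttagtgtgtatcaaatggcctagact
Stat6 probe 2: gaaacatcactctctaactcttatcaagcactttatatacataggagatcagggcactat
Stat6 probe 3: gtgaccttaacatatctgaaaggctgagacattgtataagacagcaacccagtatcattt
Stat3 probe 1: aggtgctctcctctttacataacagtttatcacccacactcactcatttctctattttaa
Stat3 probe 3: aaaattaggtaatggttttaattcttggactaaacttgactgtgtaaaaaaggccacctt
Nfatc3 probe 2: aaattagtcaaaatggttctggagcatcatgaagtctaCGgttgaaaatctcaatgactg
Nfatc3 probe 6: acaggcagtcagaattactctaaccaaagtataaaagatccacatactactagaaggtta

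Il4ra lay on chromosome 7, with its probes at chr7:132700362-132713247. In lines 1, 2 and 3 the mean of its 3 probes was 0.45, 0.32 and 0.17 (log2 of line over liver). Its 96 flank probes averaged -0.014, 0.041 and -0.096 in the same order. Gene probes were above their flank in every line, by 0.46, 0.28 and 0.27. The gene mean over lines was 0.31 ± 0.14 (SD, n = 3), with a limma adjusted p of 0.00868. For the flank mean of -0.023 the limma adjusted p was 0.423. Gene minus flank was 0.34 ± 0.11 (SD, n = 3; 95% interval 0.22 to 0.45), with a limma adjusted p of 0.0109.

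The 3 probes of Il4ra did not order the lines alike. Probe 1 gave 0.78, 0.14 and 0.16 in lines 1, 2 and 3, probe 2 gave 0.14, 0.46 and 0.24, and probe 3 gave 0.43, 0.34 and 0.11. Every one of these 9 values was above 0, but line 1 was highest at probes 1 and 3 and lowest at probe 2. Probe 1 was dim: its liver intensity in lines 1, 2 and 3 was 123, 210 and 183, and it was well above background in 5 of 6 channels. With dim probes left out and 2 probes required, a setting chosen after seeing the data, gene minus flank was 0.34 with a limma adjusted p of 0.00700. In the normexp setting the call was lost, with a gene mean of 0.013 and a gene minus flank of 0.091 (limma adjusted p 0.861 and 0.146). That setting corrects raw intensities for background and also leaves out the detrending and dye normalisation of the main values. Which of these changes moved the value was not tested. Loess within arrays, which removes a trend of the ratio with intensity, left a gene minus flank of 0.19 (limma adjusted p 0.0282) and a gene mean of 0.13 (limma adjusted p 0.0753). In the authors' deposited value table the gene mean was 0.091 and did not pass (limma adjusted p 0.184), and gene minus flank was 0.19 (limma adjusted p 0.0350). The flank passed below liver both with normexp, at -0.078, and in the value table, at -0.098 (limma adjusted p 0.0119 and 0.00510). In both settings the low flank made up more of the difference than the gene mean did.

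Stat6 lay on chromosome 10, with its probes at chr10:127084123-127097734. The mean of its 3 probes was 0.26, 0.30 and 0.27 in lines 1, 2 and 3, a narrower range than at Il4ra. Its 97 flank probes averaged 0.079, 0.12 and 0.083, so that gene probes were higher by 0.18, 0.18 and 0.19. The gene mean was 0.28 ± 0.021 (SD, n = 3; limma adjusted p 0.00530). Gene minus flank was 0.18 ± 0.0043 (SD, n = 3; 95% interval 0.10 to 0.26; limma adjusted p 0.0166). The flank was itself above liver, with a mean of 0.094 and a limma adjusted p of 5.00e-04.

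Single Stat6 probes varied far more than their mean. Probe 1 gave 0.52, 0.53 and 0.31 in lines 1, 2 and 3, probe 2 gave -0.0092, 0.28 and 0.32, and probe 3 gave 0.27, 0.093 and 0.18. Only probe 2 in line 1 was not above 0. The SE over the 3 probes was 0.15, 0.13 and 0.044 for the gene mean in lines 1, 2 and 3, each larger than the SD of 0.021 between the lines. In the normexp setting gene minus flank was higher, at 0.33. Without line 2 or without line 3 the call was lost, at limma adjusted p 0.0862 and 0.0573, while the value stayed at 0.18 in each case.

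Stat3 lay on chromosome 11, with 7 probes at chr11:100749796-100798331. In lines 1, 2 and 3 they averaged 0.020, 0.070 and 0.11, against 0.073, 0.10 and 0.087 over 101 flank probes. The gene was below its flank in lines 1 and 2 and above it in line 3. Neither the gene mean of 0.068 nor the gene minus flank of -0.019 passed the test (limma adjusted p 0.253 and 0.724). The interval for gene minus flank, from -0.11 to 0.068, lay below the Stat6 mean. Its width comes from the spread between lines, which limma moderates with the spread at all other genes. The interval leaves out the error over probes: the SE over probes of Stat3 gene minus flank was 0.18, 0.077 and 0.095 in lines 1, 2 and 3. Stat3 and Stat6 were not tested against each other, so the interval does not show that they differ. The Stat3 flank mean of 0.087 passed, with a limma adjusted p of 0.00110.

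Inside Stat3 the uncorrected ratios formed an arch. The first probe gave -0.47, -0.16 and -0.27 in lines 1, 2 and 3, and the last gave -0.63, -0.19 and -0.025. Probes 2 to 5 between them were above 0 in every line, with means over lines from 0.19 to 0.40. Line 1 was the most extreme at both ends and at the peak. The low first end went with brightness: that probe lay in the brightest decile of autosomal probes, whose median ratio was -0.37, -0.22 and -0.23, and after loess it gave 0.015, 0.094 and -0.0072. The last probe lay in deciles 4 and 5 and stayed low after loess, at -0.70, -0.24 and -0.055. Taking the median over probes in place of the mean gave a gene mean of 0.16 (limma adjusted p 0.0496) and turned gene minus flank to 0.061.

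**Figure D1:**
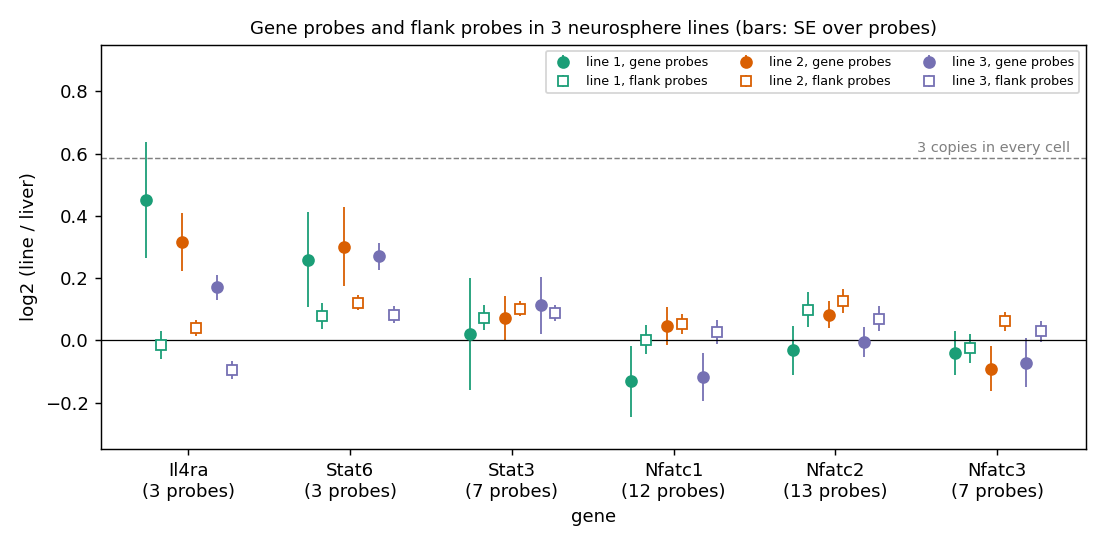
Mean log2 ratio of line over liver at the 6 genes (x axis), with filled circles for gene probes, open squares for flank probes, 1 colour per line and bars for the SE over probes. Gene circles stand above the flank squares in all 3 lines at Il4ra and Stat6 and below them in all 3 lines at the NFAT genes; the dashed line at 0.585 is the ratio of 3 copies to 2.

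None of the 3 NFAT genes passed the test for the gene mean or for gene minus flank. Nfatc1, on chromosome 18 at chr18:80803220-80907527, had 12 probes with means of -0.13, 0.046 and -0.12 in lines 1, 2 and 3. Its 76 flank probes averaged 0.0018, 0.052 and 0.027. The gene was below its flank by 0.13, 0.0064 and 0.15, so that line 2 showed hardly any difference. The gene mean was -0.068 ± 0.099 (SD, n = 3; limma adjusted p 0.320), and gene minus flank was -0.095 ± 0.077 (95% interval -0.20 to 0.0050; limma adjusted p 0.139).

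Nfatc2, on chromosome 2 at chr2:168305838-168424977, had 13 probes with means of -0.033, 0.082 and -0.0056 in lines 1, 2 and 3. They straddled 0, and the gene mean of 0.014 ± 0.060 did not pass (limma adjusted p 0.821). Its 69 flank probes averaged 0.097, 0.13 and 0.069, above the gene probes in each line. Gene minus flank was -0.083 ± 0.044 (95% interval -0.17 to 0.0054; limma adjusted p 0.143).

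Nfatc3, on chromosome 8 at chr8:108590598-108640389, had 7 probes with means of -0.042, -0.091 and -0.072. All 3 lines were slightly below liver, and the gene mean was -0.068 ± 0.025 (limma adjusted p 0.232). Its 95 flank probes averaged -0.026, 0.061 and 0.029. Gene minus flank was -0.090 ± 0.069 (limma adjusted p 0.147). Without line 1 it was -0.13 and passed, with a limma adjusted p of 0.0105, whereas the authors' deposited value table turned it to 0.022.

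Nfatc3 had the most repeatable probes of the set: the median SD of a probe over the 3 lines was 0.046, against 0.12 to 0.18 at the other 5 genes. Probe 2 gave -0.30, -0.31 and -0.34 in lines 1, 2 and 3, and probe 6 gave -0.34, -0.35 and -0.37. Probe 7, next to probe 6, gave 0.10, 0.096 and 0.11. Probes 6 and 7 thus held opposite signs in every line, and did so after loess too. Of the 7 probes, 2 were above 0 in all lines, 2 were below 0 in all lines and probes 3, 4 and 5 changed sign between lines. Probe 2 lay in the brightest decile of autosomal probes, and after loess it gave 0.021, -0.14 and -0.14, whereas probe 6 gave -0.35, -0.39 and -0.38.

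Over the 45 gene probes, 15 were above 0 in all lines, 12 were below 0 in all lines and 18 changed sign between lines. Pearson's correlation of probe values between arrays was 0.635 for lines 1 and 2, 0.632 for lines 1 and 3 and 0.755 for lines 2 and 3. Over 161460 autosomal probes the same values were 0.699, 0.643 and 0.819. These describe probes that share their sequence, dyes and slide across arrays. Probe values thus went together between line 1 and the lines from the other animal, at these genes and elsewhere.

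**Figure D2:**
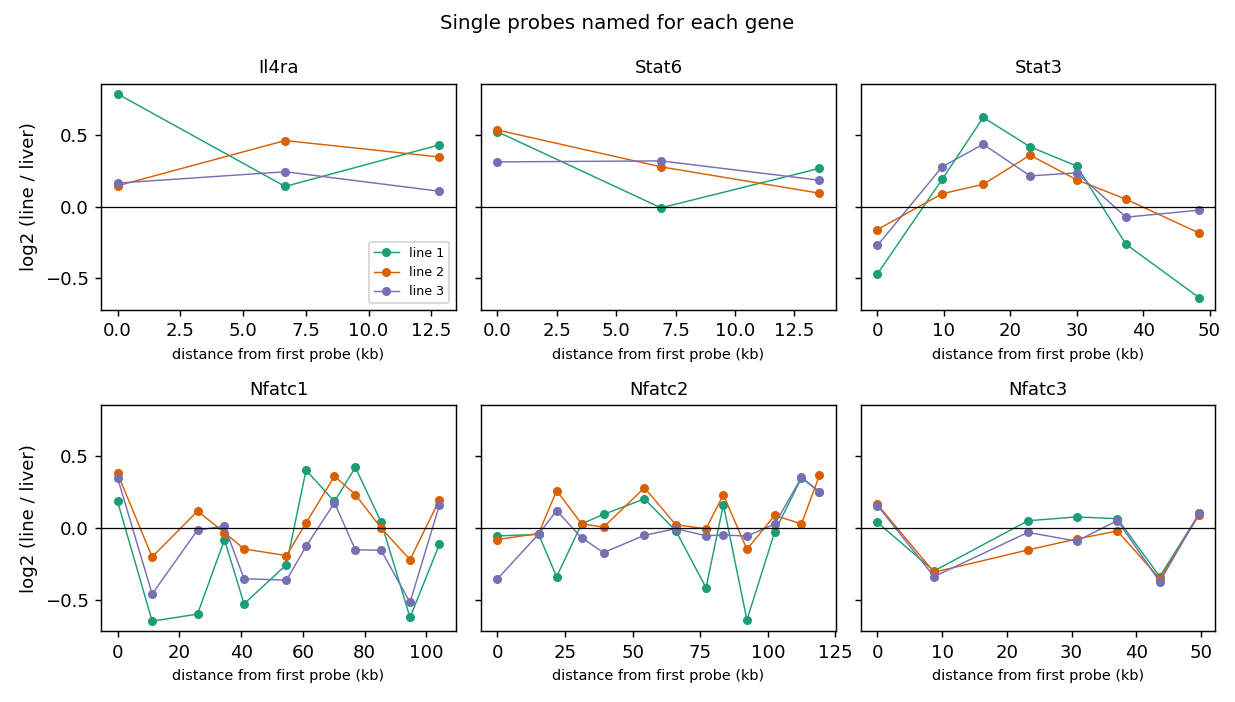
Log2 ratio of each probe named for the 6 genes (y axis) by distance from the gene's first probe in kb (x axis), with 1 colour per line. Stat3 forms an arch in these uncorrected ratios, whose low first end was gone after loess, and the 3 lines nearly coincide at Nfatc3 probes 2 and 6, which lie between -0.30 and -0.37 (probe 2 less low after loess).

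Of the 6 genes, 2 passed for the gene mean, both above liver, where 24.1% of all 9421 genes passed and 14.2% passed above liver. For gene minus flank the same 2 passed, both above their flank, where 24.0% of all genes passed and 10.1% passed above. Both have only 3 probes, and of the 2147 genes with exactly 3 probes 34.7% passed for the gene mean (21.5% above liver) and 32.9% for gene minus flank (16.4% above). For the flank mean 3 of the 6 passed (Stat6, Stat3 and Nfatc2), all above liver, where 42.5% of all genes passed and 31.9% above liver. Calls were thus common across the array, and the shares among these 6 genes cannot be read as particular to them. From the authors' deposited value table the split of gene mean calls was 850 above and 1092 below liver, against 1339 above and 935 below here, and for flank means it was 1794 and 1376 against 3010 and 996.

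Ranked among all genes tested, gene minus flank of Il4ra was higher than that of 99.1% of genes and that of Stat6 higher than 93.0%. Among genes with exactly 3 probes those positions were 97.6% and 86.7%. Stat3 stood at 46.4%, and the NFAT genes stood close together, Nfatc1 at 23.1%, Nfatc3 at 24.6% and Nfatc2 at 26.6%. The medians over all genes were 0.011 for the gene mean, 0.027 for the flank mean and -0.0090 for gene minus flank.

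**Figure D3:**
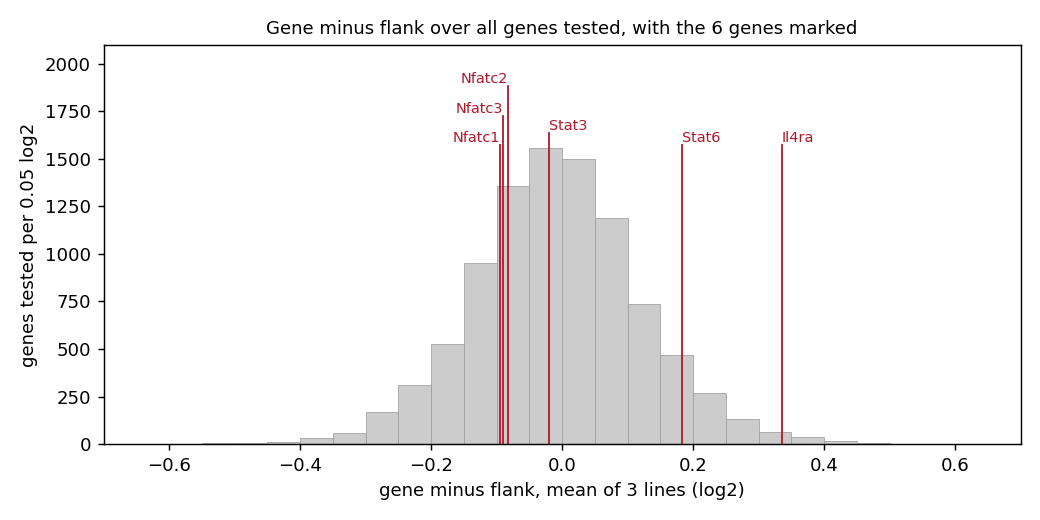
Number of genes tested (y axis) by gene minus flank, the mean over 3 lines in log2 (x axis, bins of 0.05), with red lines at the 6 genes. Il4ra at 0.34 lies in the upper tail, Stat6 at 0.18 on its shoulder, and Stat3 and the NFAT genes near the centre.

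By gene mean the order was Il4ra, Stat6, Stat3, Nfatc2, Nfatc1 and Nfatc3. Of the 5 neighbouring pairs in this order, only Stat6 and Stat3 had values over lines that did not overlap. In a line whose cells all held 3 copies in place of 2 the ratio would be 0.585, and with 1 copy it would be -1, if the array did not compress ratios, which was not measured here. The 95% intervals of the gene mean lay between these values at all 6 genes, the highest bound being 0.44 at Il4ra and the lowest -0.18 at Nfatc1. In single lines the probe error was wider: in line 1 the Il4ra mean of 0.45 had an SE of 0.19 over its 3 probes, which reaches 0.585. Changes carried by part of the cells were not tested.

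Across the array the ratio moved with brightness. Autosomal probes were split into deciles by the mean of both channels, and in the dimmest decile the median log2 ratio was 0.33, 0.22 and 0.19 in lines 1, 2 and 3. In the brightest decile it was -0.37, -0.22 and -0.23. The probes of Il4ra lay in deciles 1 to 4, and the medians of the deciles they came from averaged 0.22, 0.14 and 0.15, against gene means of 0.45, 0.32 and 0.17. In line 3 the gene mean was thus close to that of other probes as dim. The probes of Stat6 lay in deciles 5 to 8, whose medians averaged -0.035, -0.035 and -0.037, below its gene means of 0.26, 0.30 and 0.27. After loess Stat6 gene minus flank was 0.22 (limma adjusted p 0.0161).

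**Figure D4:**
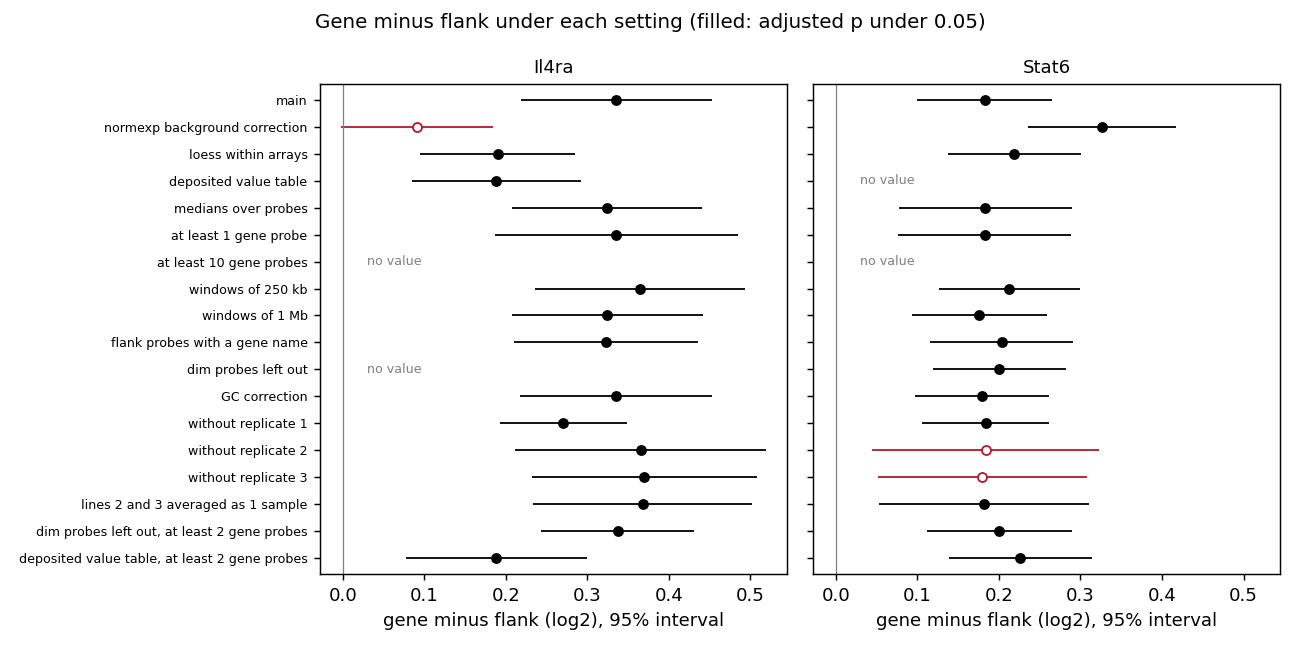
Gene minus flank (x axis, log2) of Il4ra and Stat6 under each processing setting (rows), with 95% intervals, filled where the limma adjusted p was below 0.05. Il4ra falls to 0.091 in the normexp setting, which starts from raw intensities and where Stat6 stands at 0.33. Stat6 loses its call without line 2 or without line 3.

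The windows held structure of their own. Around Nfatc2 the 33 probes on the left (at lower coordinates) averaged 0.26, 0.20 and 0.21 in lines 1, 2 and 3, with an SE over probes of 0.071, 0.051 and 0.055. The 36 probes on the right averaged -0.050, 0.054 and -0.058. Left exceeded right in every line, and the gene probes at -0.033, 0.082 and -0.0056 resembled the right. Of the left probes, 21 carried no gene name and averaged 0.28 in each line, while the 12 named probes averaged 0.21, 0.078 and 0.090. With named flank probes only, the Nfatc2 flank mean fell to 0.0099 (limma adjusted p 0.791), so the flank call there rested on probes that carry no gene name. It was also lost in the normexp setting and in the authors' deposited value table (limma adjusted p 0.0528 and 0.0988).

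At Il4ra the 40 left probes averaged -0.13, -0.013 and -0.13 and the 56 right probes 0.068, 0.079 and -0.071 in lines 1, 2 and 3. Stat6 had similar sides, with 0.086, 0.14 and 0.075 on the left and 0.070, 0.097 and 0.092 on the right. Beside Stat3 the left side gave 0.15, 0.12 and 0.086, and the right 0.00099, 0.085 and 0.089. The sides thus differed in line 1 and were level in line 3. With windows of 250 kb the Stat3 flank mean was 0.058 and no longer passed (limma adjusted p 0.0689).

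**Figure D5:**
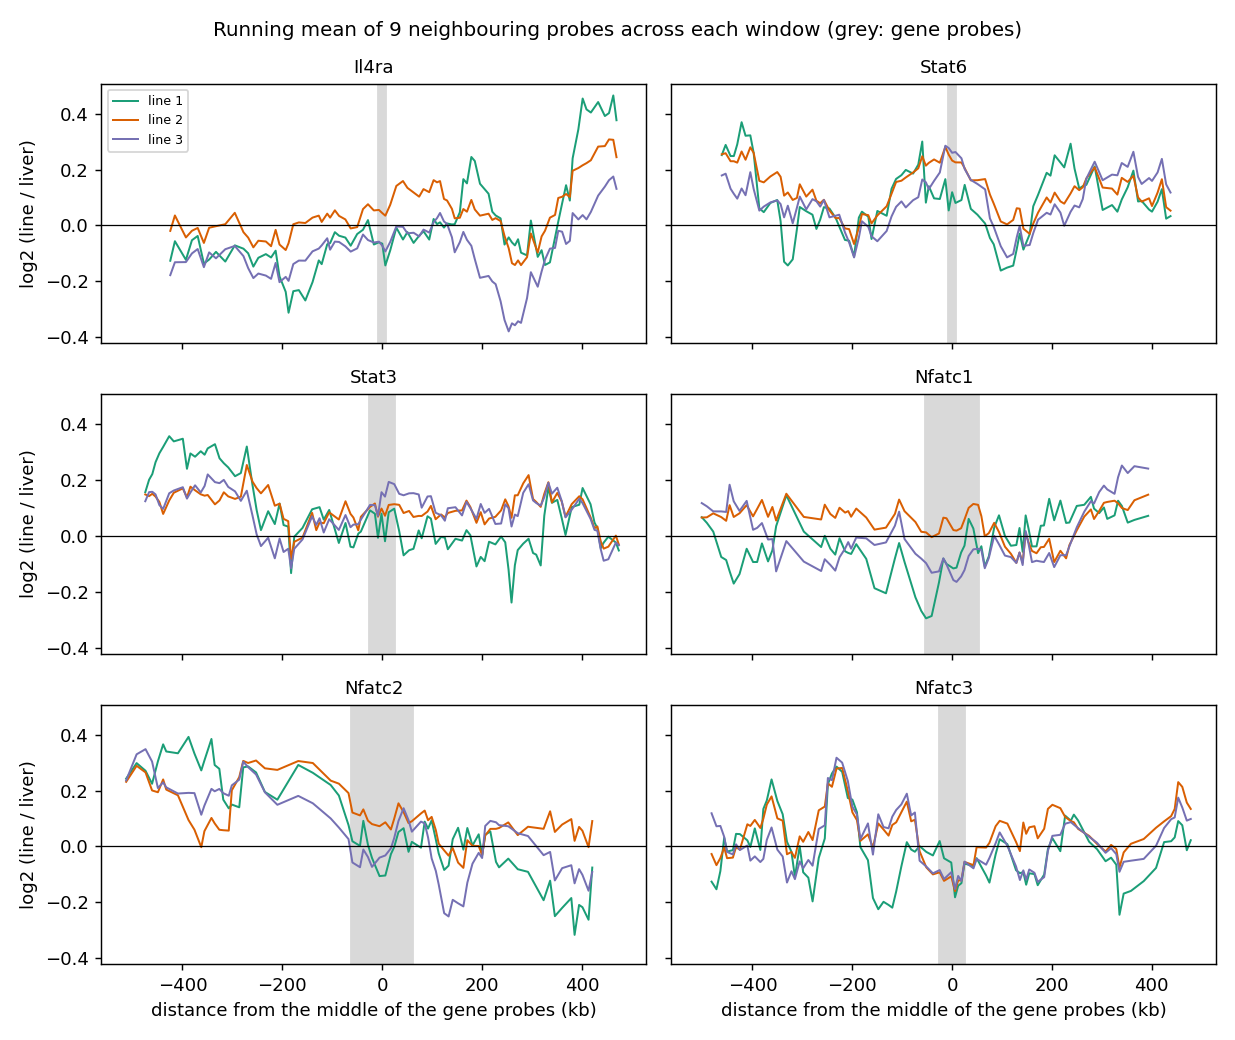
Running mean of 9 neighbouring probes (y axis, log2 of line over liver) by distance from the middle of the gene probes in kb (x axis), for each of the 6 windows, with 1 colour per line and the gene in grey. The left side of the Nfatc2 window lies above 0 in all lines and the right side near 0, and at Il4ra line 3 runs below line 2 along most of the window.

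Lines 2 and 3 share an animal number and a liver label. As the arrays hold the same probes, the difference between these lines cancels probe effects that both arrays carry. At Il4ra the 96 flank probes were lower in line 3 than in line 2 by a mean of 0.14 with an SE over probes of 0.015 (-0.096 against 0.041). Only 0.414% of the genes tested had a flank difference below that of Il4ra, where the median was -0.013. The 3 gene probes moved by a like amount, -0.15 ± 0.082 (SE over probes), so gene minus flank hardly changed between these lines. The shift was seen on both sides of Il4ra, and neither line has a replicate.

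Nfatc1 showed another pattern. Line 3 was below line 2 at 11 of its 12 gene probes, by a mean of -0.16 ± 0.034 (SE over probes), while the 76 flank probes differed by -0.025 ± 0.020. For this difference in gene minus flank, 5.43% of genes had a lower value. At Nfatc2 line 3 was lower at 11 of 13 gene probes, with a mean of -0.087 ± 0.048. At Stat6 the difference was -0.030 ± 0.097, at Stat3 0.042 ± 0.065 and at Nfatc3 0.019 ± 0.022, each within its probe error.

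Named neighbours did not share the values of Il4ra. Il21r, the interleukin 21 receptor gene 35.3 kb to its right, gave -0.12, 0.070 and -0.078 in lines 1, 2 and 3 over 3 probes. AK050668, the name with the most probes in that window, gave -0.16, 0.0051 and -0.13. Farther right, D430042O09Rik had a mean of -0.047 and Gsg1l of 0.13 over its 22 probes in the window. Neither passed (limma adjusted p 0.564 and 0.124), and the Gsg1l test used all 23 of its probes. None of these 4 came near the Il4ra mean of 0.31.

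Beside Stat6, Lrp1, which encodes an endocytic receptor, was also above liver at 0.22, 0.20 and 0.10 in lines 1, 2 and 3 (mean 0.17, limma adjusted p 0.0240). R3hdm2 had a mean of -0.073 and Kif5a, a kinesin motor gene, of 0.031, and neither passed for the gene mean, while R3hdm2 lay below its own flank by -0.20 (limma adjusted p 0.0143). The STAT5 genes lie beside Stat3. Stat5b gave 0.052, 0.071 and 0.025, close to Stat3 itself, and Stat5a, with 2 probes and so no test, gave -0.099, 0.065 and -0.072. AK219422 and Atp6v0a1 averaged -0.019 and -5.30e-04.

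Among neighbours of the NFAT genes, Kcng2, a potassium channel subunit gene 245 kb left of Nfatc1, was below liver at -0.32, -0.14 and -0.33 (mean -0.26, limma adjusted p 0.0103), and below its own flank by -0.26 (limma adjusted p 0.0119). It shared with Nfatc1 that line 2 was the highest. Ctdp1 (-0.094) and Atp9b (-0.037), the other neighbours there, did not pass. Beside Nfatc2, Atp9a, Zfp64 and Adnp had means of -0.067, -0.047 and 0.031, and none passed. Beside Nfatc3, Smpd3 at 0.072, Ranbp10 at -0.13 and AK138796 at 0.036 did not pass for the gene mean, while Ranbp10 lay below its own flank by -0.17 (limma adjusted p 0.0250).

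The genes with the nearest 3 values by Euclidean distance over lines, a measure of likeness only, lay on other chromosomes for each of the 6. Il2ra, which encodes the interleukin 2 receptor alpha chain, was nearest to Il4ra, at 0.45, 0.31 and 0.17 in lines 1, 2 and 3. AK135687 was nearest to Stat6, Hmgcll1 to Stat3, Adamts2 to Nfatc1, Col4a2 to Nfatc2 and Nrg4 to Nfatc3. The measure rests on 3 values a gene among 9421 genes, and the 6 distances ranged from 0.0043 to 0.016.

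Other genes of the pathways were read from 2 lists, both chosen with earlier results of these data known. In the list for interleukin 4 and JAK-STAT signalling, 28 of 33 genes had a probe and 17 were tested, Il4ra, Stat6 and Stat3 included. For the gene mean 3 passed, all above liver (Il4ra, Stat6 and Il6ra), or 17.6% of the list. For gene minus flank 3 passed above (Il4ra, Stat4 and Stat6) and 1 below (Ptpn11), or 23.5%. Of all genes 24.1% passed for the gene mean, 14.2% above and 9.92% below 0, and 24.0% for gene minus flank, 10.1% above and 13.9% below. Counted over both directions the list's shares were no higher than these, and with 17 genes tested its 3 calls above 0 are too few to set against the shares above. The list's median was 0.068 for the gene mean and 0.026 for gene minus flank, against 0.011 and -0.0090 over all genes. Over the 14 tested list genes other than Il4ra, Stat6 and Stat3 these medians were 0.048 and -0.0052, and 7.14% and 14.3% passed.

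Il6ra, the interleukin 6 receptor gene that acts upstream of STAT3, gave 0.13, 0.20 and 0.14 in lines 1, 2 and 3 (limma adjusted p 0.0280), without a difference from its flank that passed. Stat4, which answers to interleukin 12, lay above its flank by 0.15 (limma adjusted p 0.0336), and by 0.016 with medians over probes. Ptpn11, the gene of the phosphatase SHP2, lay below its flank by -0.15 (limma adjusted p 0.0351), and after loess by -0.044. The kinase genes Jak1, Jak2 and Tyk2 had gene means of -0.0048, 0.10 and -0.032, none of which passed. Il13ra1, whose product pairs with the interleukin 4 receptor, had 0.098 and did not pass either.

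In the calcineurin and NFAT list, 29 of 30 genes had a probe and 18 were tested. For the gene mean 3 passed above liver (Nfat5, Ppp3cb and Dyrk1a) and 1 below (Homer2), or 22.2%. For gene minus flank 2 passed above (Nfat5 and Ppp3cb) and 2 below (Rcan1 and Homer2), again 22.2%. Over all genes the shares were 24.1% and 24.0%, so calls in the list were no more frequent than across the array. Nfat5, the NFAT relative that answers to osmotic stress and not to calcineurin, gave 0.43, 0.21 and 0.34 over 9 probes (limma adjusted p 0.00642), beside Nfatc1, Nfatc2 and Nfatc3 near 0. Its gene minus flank of 0.29 became 0.011 after normexp, as that of Il4ra also shrank.

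Ppp3cb, a catalytic subunit gene of calcineurin, gave 0.21, 0.098 and 0.27 (limma adjusted p 0.0219), and lost its call for gene minus flank after loess. The other catalytic subunit genes Ppp3ca and Ppp3cc had means of 0.049 and 0.044 and did not pass. Dyrk1a, a kinase that returns NFAT to the cytoplasm, gave 0.19, 0.11 and 0.21 (limma adjusted p 0.0250), and did not pass after loess. Homer2, a scaffold protein gene that in mouse T cells competes with calcineurin for NFAT, gave -0.27, -0.15 and -0.33 over 11 probes (limma adjusted p 0.0101), and its gene mean and gene minus flank passed in every setting run. Rcan1, a calcineurin inhibitor gene, lay below its flank by -0.18 (limma adjusted p 0.0246), a call that was lost after loess.

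On the 3 arrays, liver DNA was well above background at 96.31% to 99.05% of probes and line DNA at 99.02% to 99.42%, and no spot was saturated. Line 1 had the fewest in liver DNA and also the widest spread of flank probes (SD 0.44 at Il4ra, against 0.26 in line 2 and 0.28 in line 3). With 3 arrays the precision of each value over lines is limited. Replicate p-values rest on the spread between lines that share a slide, with lines 2 and 3 as separate samples. For each gene limma moderates that spread with the spread at all genes. With the pair averaged, Il4ra and Stat6 kept their calls for gene minus flank (limma adjusted p 4.90e-04 and 0.0438). That fit rests on 2 values a gene, so the spread behind its p-values comes largely from other genes. The p-values therefore do not measure how well the animals agree at Il4ra or Stat6. The fit adds no replicate, and 1678 of 9421 genes passed in it.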

How the data were processed

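Copy number was measured by 2-colour array comparative genomic hybridisation in 3 neurosphere lines against liver. Per the file headers, Agilent Feature Extraction 10.7.3.1 made the deposited intensity values, with background subtraction, detrending and dye normalisation by the authors. The deposited value table holds log10 ratios whose centring the sources used here do not give, and served as an alternative. From those deposited intensities a log2 ratio of Cy5 to Cy3 was formed without control and outlier spots, averaged per probe and centred on the autosomal median.

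Gene mean, flank mean and gene minus flank, 1 value per gene and array, were compared with 0 in limma 3.58.1 under R 4.3.3 (eBayes after lmFit, 2-sided, adjusted by Benjamini-Hochberg over 9421 genes with at least 3 own and 20 flank probes, threshold 0.05). Other steps used Python 3.11.15. On simulated data for 9421 genes, the gene minus flank test recovered 87 of 100 genes shifted by 0.5, 6 of 100 shifted by 0.25, and called 1 unchanged gene. For the gene mean it recovered 80 and 9 of 100 and called 0. The simulated noise was independent for each probe and array, whereas real autosomal probes correlated between arrays at 0.643 to 0.819. These rates therefore do not carry over to the real arrays, where 24.0% of genes passed for gene minus flank.

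The members and lists were chosen with earlier results of these data known, and 1 gene of the lists is not reported here. Text names all 6 members, list genes past a threshold, 3 neighbours with most probes per window, STAT and interleukin receptor neighbours, and the nearest gene by distance; the untested or unpassed list genes and the kinase genes were picked for their role. Alternatives were normexp (offset 50) background correction, loess, the value table, medians, probe minimums (1 and 10), windows of 250 kb and 1 Mb, named flank probes, dim probes left out, a GC correction, each line left out, and lines 2 and 3 averaged. The normexp setting started from the raw mean intensities, centred on the autosomal median but without detrending or dye normalisation. It therefore differs from the main values in more than its background model.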

Additional observations from a re-analysis of the deposited data

How the results depend on the processing

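Of 550 tested values recomputed under the alternatives, 450 kept their direction and side of the threshold. Some of these values could not move: a gene mean does not depend on the window, the flank probes or the probe minimum. The 450 are thus no measure of robustness. Of 119 counts of calls 88 stayed within 1.5 times. The cause of the changes below was not tested unless the setting itself drops genes or lines. Gene minus flank of Il4ra lost its call with normexp (0.091), fell to 0.19 in the value table, and leaving out a line gave 0.27 to 0.37. Its gene mean lost its call with normexp (0.013), loess (0.13) and in the value table (0.091). For Stat6 leaving out a line gave 0.18 to 0.18, without a call when line 2 or 3 was left out. The Stat3 difference changed sign with medians (0.061) and windows of 250 kb (0.0092), and its gene mean in the value table (-0.012). The Nfatc3 difference changed sign in the value table (0.022) and with medians (0.0061). For Nfatc3, leaving out a line gave -0.13 to -0.059, past the threshold without line 1, where the lines left share an animal number. Its gene mean in the value table was 0.014, and its flank mean was -0.0078 there and -0.023 with medians. The Nfatc2 difference was 0.0045 with named flank probes. Its gene mean was -0.041 with normexp, -0.033 with loess, -0.086 in the value table, -0.012 with medians, -0.0048 without dim probes, and -0.019 to 0.038 leaving out a line. The Nfatc1 flank mean was -0.013 in the value table, -0.0045 with windows of 250 kb and -0.046 with named flank probes. The Il4ra flank mean passed below liver with normexp (-0.078) and in the value table (-0.098), and ranged from -0.055 to 0.013 leaving out a line. The Stat4 gene mean with medians was -0.045 and that of Ptpn11 with normexp 0.014.

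Gene mean calls, 2274 of 9421 genes, became 4763 of 21079 with at least 1 probe and 746 of 2756 with at least 10. They became 728 of 9421 with lines 2 and 3 averaged, and 1074 to 3191 leaving out a line. Flank calls, 4006 of 9421, became 9259 of 21079 and 1071 of 2756 with those probe minimums, and 1977 to 3520 leaving out a line. Gene minus flank calls, 2258 of 9421, became 1424 with loess and 972 to 3842 leaving out a line. With the probe minimums they became 4667 of 21079 and 773 of 2756. Of the gene mean calls 1127 were shared with normexp and 1395 with loess. In the interleukin 4 list, gene mean calls, 3 of 17 genes, became 1 of 3 with at least 10 probes. They became 5 of 21 without dim probes at a minimum of 2 probes, and 2 to 6 leaving out a line. Its gene minus flank calls, 4 of 17, became 2 with medians, 1 of 3 with at least 10 probes, 2 with lines averaged, and 1 to 7 leaving out a line. In the calcineurin list, gene mean calls, 4 of 18, became 2 with normexp, 2 of 11 with at least 10 probes, 2 with lines averaged, and 2 to 5 leaving out a line. Its gene minus flank calls, 4 of 18, became 1 with normexp, 2 with loess, and 2 to 8 leaving out a line. The highest list counts came without line 1, where 3191 of 9421 genes passed for the gene mean and 3842 for gene minus flank.

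Il4ra had no value without dim probes at a minimum of 3, nor Stat6 in the value table; requiring 2 probes, a choice made after seeing the data, gave 0.34 and 0.23, with limma adjusted p 0.00700 and 0.0215. That setting in the value table repeated the signs above. Each log2 ratio already pairs a line with liver on its own array. The lines form a single group, so no pairing between groups of lines was possible. Of the gene probes, the first of Il4ra was well above background in 5 of 6 channels and probe 12 of Nfatc2 in 1 of 6.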
